A study of Mus musculus with 16 samples.

Results

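The comparison set 4 mice that had received the herbal prescription Bojungikgi-tang (BJIKT) against 4 mice that had not, when both groups had dermatitis caused by 2,4-dinitrochlorobenzene (DNCB) and ate a diet low in ligands of the aryl hydrocarbon receptor (AhR). Its members were chosen by their treatment label and are 8 of the 16 libraries of the series. LowAhR+AD mice were male, wild-type C57BL/6N animals bought at 3 weeks of age, kept for 12 weeks on the diet low in AhR ligands, and treated on the dorsal skin with 1% DNCB, a hapten that elicits contact hypersensitivity, for 10 weeks after 2 weeks on the diet. LowAhR+AD+BJ mice shared all of this and also received BJIKT by oral gavage at 1 g/kg per day over the weeks of DNCB treatment. Whether LowAhR+AD mice were given water by gavage is not stated in the sources used here, so that gavage and BJIKT cannot be told apart. The LowAhR group of 4 mice, with the same diet and no DNCB, is used here for context, and the Cont group of 4 mice on normal chow entered only the common model. One library was made per mouse from whole dorsal skin with QuantSeq, which reads the end of each messenger RNA, and levels are given as CPM, the count scaled so that every library has the same total.

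AhR is a transcription factor that waits in the cytoplasm bound to HSP90, moves to the nucleus when it binds a ligand, pairs with ARNT and switches on genes of the cytochrome P450 family 1 together with its own repressor, Ahrr. In keratinocytes the receptor is known to promote terminal differentiation, in which loricrin, involucrin and filaggrin-like proteins are cross-linked into the cornified envelope. Type 2 cytokines act on the same cells through receptors that contain Il4ra and Il13ra1 and signal through STAT proteins. BJIKT is prescribed for atopic dermatitis in East Asia, and the comparison asks whether AhR targets, barrier genes and cytokine receptor genes differed in treated skin.

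The 2 groups had like depths, with 11336051 to 13467477 counts per library in LowAhR+AD and 10614393 to 12999055 in LowAhR+AD+BJ. One library stood apart. Across 6926 genes with a mean above 20 CPM, log2 CPM in LowAhR+AD replicate 1 correlated with the other 7 libraries at r = 0.60 to 0.71, against 0.85 to 0.95 among those 7, as a description across genes that share libraries. Among genes that averaged at least 5 CPM in the other libraries, 2.68% had no count in that library, against at most 0.266% in any other. Many results below are therefore also given without it.

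**Figure D1:**
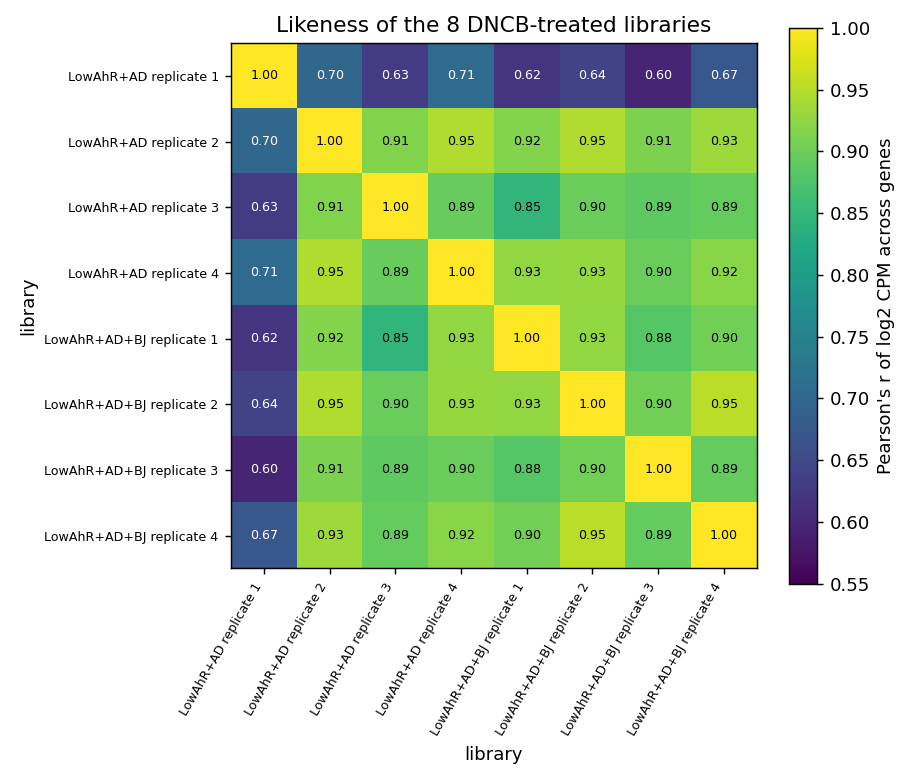
Pearson's r of log2 CPM between each pair of the 8 DNCB-treated libraries, with the libraries on both axes and the value printed in each square. The row and column of LowAhR+AD replicate 1 lie between 0.60 and 0.71, and all pairs of the other libraries at 0.85 or above.

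The promoters of 4 AhR targets of the list are shown because their genes are those through which activity of the receptor is usually read, and the data below give their levels. Each sequence is the 250 bases before the transcript start that the RefSeq table uses in GRCm38.p6, which for Cyp1a1 lies inside the span of the gene given below, with the core of the AhR response element in capitals, searched as GCGTG on both strands (CACGC on the other strand). None of the matches overlapped an E-box, CACGTG.
Cyp1a1, chr9:57697363-57697612, plus strand: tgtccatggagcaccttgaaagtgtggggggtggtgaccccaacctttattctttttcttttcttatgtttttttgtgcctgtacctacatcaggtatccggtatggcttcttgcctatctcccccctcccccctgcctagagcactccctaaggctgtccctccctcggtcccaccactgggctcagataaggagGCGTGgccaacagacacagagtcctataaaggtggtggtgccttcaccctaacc
Cyp1b1, chr17:79715062-79715311, minus strand: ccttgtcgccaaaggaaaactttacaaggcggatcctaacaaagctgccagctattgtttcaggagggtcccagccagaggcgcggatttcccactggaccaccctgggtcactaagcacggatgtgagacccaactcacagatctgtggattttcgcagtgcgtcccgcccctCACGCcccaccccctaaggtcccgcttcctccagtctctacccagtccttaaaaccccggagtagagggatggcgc
Ahrr, chr13:74292332-74292581, minus strand: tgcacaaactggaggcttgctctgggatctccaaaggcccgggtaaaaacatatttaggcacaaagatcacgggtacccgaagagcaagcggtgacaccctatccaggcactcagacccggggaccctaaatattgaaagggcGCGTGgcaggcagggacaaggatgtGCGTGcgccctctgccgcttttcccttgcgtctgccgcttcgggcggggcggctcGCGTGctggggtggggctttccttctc
Tiparp, chr3:65528197-65528446, plus strand: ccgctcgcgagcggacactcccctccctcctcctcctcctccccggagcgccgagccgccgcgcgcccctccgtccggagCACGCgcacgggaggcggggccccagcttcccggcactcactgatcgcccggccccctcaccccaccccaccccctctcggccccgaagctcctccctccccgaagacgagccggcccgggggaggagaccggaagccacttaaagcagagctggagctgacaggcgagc

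Ahrr held 3 cores in this window and Cyp1a1, Cyp1b1 and Tiparp 1 each. Of all 32851 windows of this length in the table, 28.2% held at least 1 core, so that a match describes the letters only.

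No gene passed the test between LowAhR+AD+BJ and LowAhR+AD. Of 14854 genes tested with edgeR's quasi-likelihood test, 0 (0%) had an adjusted p under 0.05, and the lowest adjusted p was 0.193. At an unadjusted p under 0.05 there were 1405 genes (9.46%), of which 670 (4.51%) were higher and 735 (4.95%) lower with BJIKT. Without LowAhR+AD replicate 1 there were 784 of 15028 genes (5.22%), 438 (2.91%) higher and 346 (2.3%) lower, and again 0 (0%) at an adjusted p under 0.05. The 4 values of one group lay wholly above the 4 of the other in 360 genes (2.42%) that were higher and 394 (2.65%) that were lower with BJIKT. Without that library these were 434 (2.89%) and 628 (4.18%). Directions below are those of the estimates. The edgeR p-values set each difference against the spread between mice within groups, estimated over all 16 libraries. The 95% interval of the log2 fold change lay within a 2-fold change either way for 4854 genes, or 32.7% of those tested, so that for the other genes the interval held differences of 2-fold or more in at least one direction. DESeq2 called 17 genes on the same counts. Those of them described below were Mylk4, Trdn, Itgb1bp2, Apol7a, Muc15 and Nudt7, which were higher, and Selenbp1, Rn4.5s and Vgll4, which were lower with BJIKT.

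Ahr itself, which encodes the receptor (GRCm38.p6 chromosome 12, 35497979 to 35534989), had 4.43, 19.8, 14.8 and 18.2 CPM in LowAhR+AD replicates 1 to 4. It had 19.99, 11.8, 30.9 and 15.2 CPM in LowAhR+AD+BJ. The groups overlapped, and the lowest value by far was that of LowAhR+AD replicate 1. Its log2 fold change with BJIKT was 0.45 (SE 0.37, edgeR adjusted p = 0.722), with a 95% interval of -0.33 to 1.22, and 0.14 without that library. Both DNCB groups had fewer Ahr reads than the LowAhR group, which had 28.3 ± 5.36 CPM (SD, n = 4), although neither difference passed the test (adjusted p = 0.0888 and 0.439 from edgeR). Because whole skin was sequenced, fewer cells of a type and less RNA per cell cannot be told apart for any gene.

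Cyp1a1 (chromosome 9, 57687928 to 57703824), the monooxygenase that AhR induces most directly, had 6.95, 11.4, 3.11 and 7.87 CPM in LowAhR+AD. In LowAhR+AD+BJ it had 26.7, 11.8, 3.42 and 10.6 CPM. Replicate 1 of LowAhR+AD+BJ was the highest of all, replicate 2 lay just above LowAhR+AD, and the others lay within its range. On the log2 scale it differed by 0.84 (SE 0.53, edgeR adjusted p = 0.617) and the 95% interval ran from -0.27 to 1.95 (exact permutation p = 0.343, two-sided). Without LowAhR+AD+BJ replicate 1 it was 0.23. Cyp1b1 (chromosome 17, 79706940 to 79715061), the related enzyme of the dermis and hair follicle, had 37.7, 61.7, 35.8 and 56.1 CPM without and 79.7, 59.1, 78.7 and 61.3 CPM with BJIKT. Of the treated mice 2 lay above all untreated ones and 2 between them. The log2 fold change of 0.54 (SE 0.29, edgeR adjusted p = 0.556) had an interval of -0.07 to 1.15, and was 0.44 without LowAhR+AD replicate 1.

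Ahrr (chromosome 13, 74211118 to 74292331), the repressor that competes with AhR for ARNT, was near the limit of detection. It had 0, 1.23, 3.81 and 0.964 CPM in LowAhR+AD and 0.73, 1.53, 5.6 and 5.04 CPM in LowAhR+AD+BJ, which overlapped widely. The interval of -0.77 to 2.97 around a log2 fold change of 1.10 (SE 0.89, edgeR adjusted p = 0.717) allows either direction, and the estimate was 0.68 without LowAhR+AD replicate 1. Tiparp (chromosome 3, 65528447 to 65555518), an AhR-induced ADP-ribosyltransferase named after its values were seen, had a log2 fold change of 0.46 (SE 0.38, edgeR adjusted p = 0.72), with 11.1, 22.5, 16.9 and 16.5 CPM without and 26.1, 26, 23.5 and 16.7 CPM with BJIKT. It was 0.30 without LowAhR+AD replicate 1, the lowest library.

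**Figure D2:**
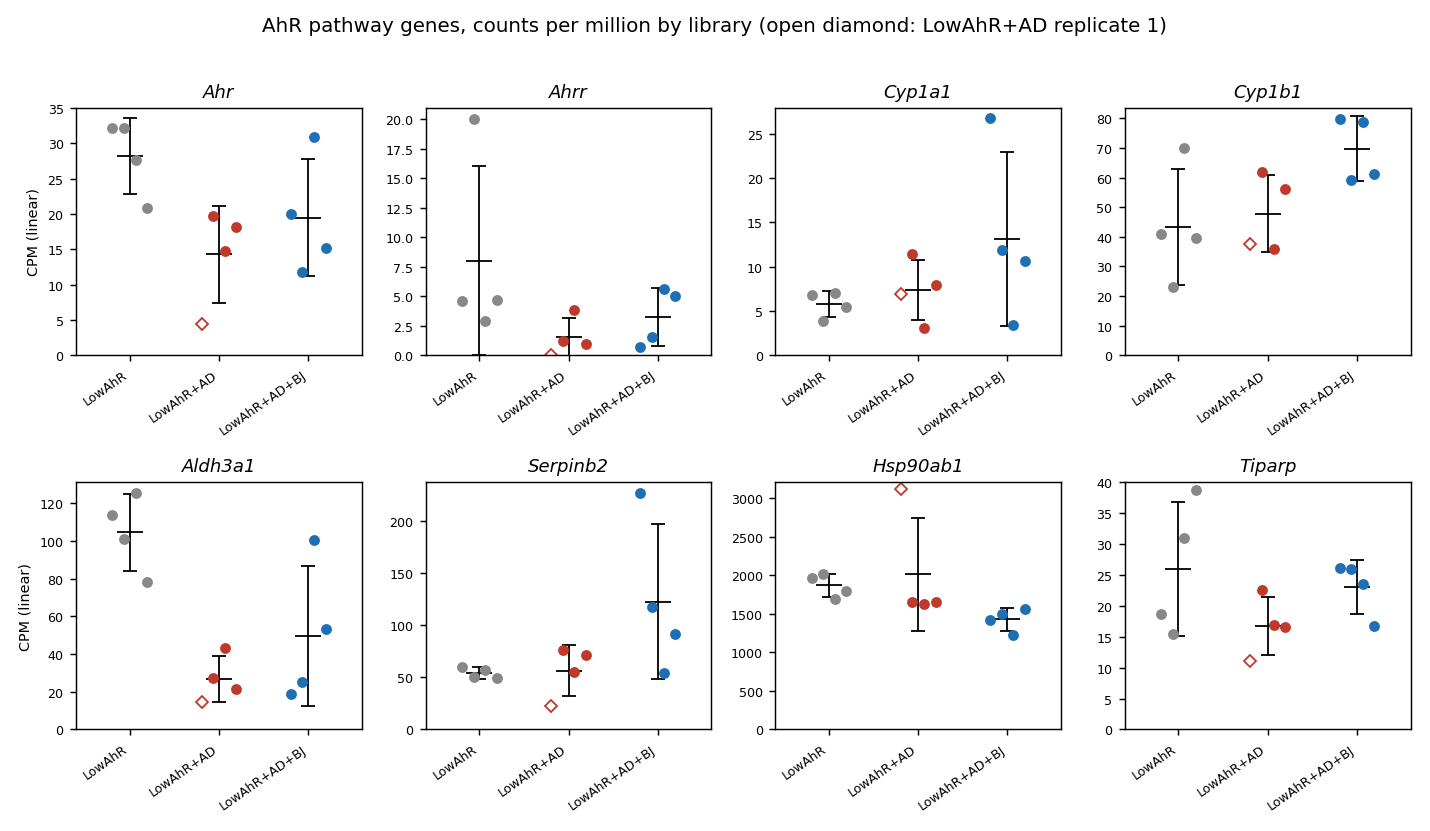
Levels of 8 AhR pathway genes in CPM on linear axes, with a point per library for LowAhR and both DNCB groups, the mean as a bar and the SD as the error bar (n = 4). LowAhR+AD replicate 1 is an open diamond: it is the lowest DNCB-treated library for Ahr, Ahrr, Aldh3a1, Serpinb2 and Tiparp and the highest for Hsp90ab1, and the treated and untreated groups overlap in all but Hsp90ab1.

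Over the AhR pathway list, 20 of 25 members passed the filter on low counts, with 14 higher and 6 lower with BJIKT, beside 50% higher of all genes tested, and a median log2 fold change of 0.36, beside 0.00 over all genes, and 0.25 without LowAhR+AD replicate 1. None passed the test, and 2 had an unadjusted p under 0.05, both higher, beside 4.51% of all genes. Without that library 1 did, beside 2.91%. The 2 were Serpinb2, a serpin of keratinocytes and macrophages that AhR ligands induce, and Aldh3a1, an aldehyde dehydrogenase of the AhR battery. Serpinb2 had 22.4, 76.1, 55.4 and 71.6 CPM without and 227, 117, 53.8 and 91.8 CPM with BJIKT. Its highest value was again in LowAhR+AD+BJ replicate 1, as for Cyp1a1, and the log2 fold change was 1.12 (SE 0.41, edgeR adjusted p = 0.498), and 0.86 without LowAhR+AD replicate 1. Aldh3a1 had 14.3, 27.5, 43.1 and 21.7 CPM in LowAhR+AD and 18.9, 25.3, 101 and 53.5 CPM in LowAhR+AD+BJ. The 2 highest values were those of treated replicates 3 and 4, and the other 2 lay among the untreated mice. Its log2 fold change was 0.89 (SE 0.41, edgeR adjusted p = 0.514), and against LowAhR, whose mean was 105 CPM, it differed by -1.97 in LowAhR+AD (adjusted p = 0.00566) and by -1.08 in LowAhR+AD+BJ (adjusted p = 0.121), both by edgeR.

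Hsp90ab1, the chaperone that holds AhR in the cytoplasm, had an estimate in the opposite direction. It had 3119, 1658, 1629 and 1650.5 CPM in LowAhR+AD and 1421, 1501, 1222 and 1569.9 CPM in LowAhR+AD+BJ, and the groups did not overlap (exact permutation p = 0.0286, the smallest that 4 against 4 can give). The log2 fold change of -0.50 (SE 0.24, edgeR adjusted p = 0.527) was -0.21 without LowAhR+AD replicate 1, the library that was highest.

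No barrier gene passed the test. Lor (loricrin), the most abundant cornified envelope protein, had 222, 718, 3132 and 289 CPM in LowAhR+AD and 158, 596, 1521 and 1190.0 CPM in LowAhR+AD+BJ. Both groups spread widely, with replicate 1 the lowest and replicate 3 the highest in each. The log2 fold change of -0.33 (SE 0.69, edgeR adjusted p = 0.904) had an interval of -1.78 to 1.12, and its direction turned to 0.06 with limma voom, while without LowAhR+AD replicate 1 it was -0.68. Flg2, a filaggrin-like protein, had 14.9, 74.7, 492 and 47.3 CPM without and 32.4, 123, 608 and 196 CPM with BJIKT, and in both groups replicate 3 was the highest. The log2 fold change of Flg2 was 0.61 (SE 0.79, edgeR adjusted p = 0.833), and 0.22 without LowAhR+AD replicate 1, while against LowAhR it differed by -2.69 in LowAhR+AD (adjusted p = 0.0426) and by -2.08 in LowAhR+AD+BJ (adjusted p = 0.139), both by edgeR. Ivl (involucrin), an early cross-linked protein of the envelope, had 33.8, 217, 320.1 and 189 CPM in LowAhR+AD and 167, 376, 288 and 368 CPM in LowAhR+AD+BJ. Most of its log2 fold change of 0.66 (SE 0.43, edgeR adjusted p = 0.636) came from the low value of LowAhR+AD replicate 1, without which it was 0.30.

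Of 30 cornified envelope genes tested, 21 were higher with BJIKT (median log2 fold change 0.33), but without LowAhR+AD replicate 1 only 13 were, and the median was -0.02. It ranged up to 0.82, without LowAhR+AD replicate 3. Those with the lowest unadjusted p were Krt77, Spink5, Klk7 and Calml3. Spink5, the inhibitor of skin kallikreins, had 340.4, 1452, 1751 and 1398 CPM in LowAhR+AD and 2038, 2669, 1688 and 2145 CPM in LowAhR+AD+BJ. Treated replicate 3 alone lay within the untreated range, and the log2 fold change was 0.79 (SE 0.34, edgeR adjusted p = 0.507), and 0.47 without LowAhR+AD replicate 1. Klk7, a protease that Spink5 restrains and that loosens the horny layer, had 3122, 7184, 3032 and 6545 CPM without and 8626, 10552, 4242 and 10518 CPM with BJIKT. It differed by 0.77 on the log2 scale (SE 0.35, edgeR adjusted p = 0.511), and against LowAhR by 1.08 in LowAhR+AD (adjusted p = 0.05004) and by 1.85 in LowAhR+AD+BJ (adjusted p = 0.00594), both by edgeR. Calml3, a calmodulin-like protein of differentiating keratinocytes, had a log2 fold change of 0.70 (SE 0.32, edgeR adjusted p = 0.522), or 0.46 without LowAhR+AD replicate 1, from 592 ± 257 CPM (SD, n = 4) to 961 ± 376 CPM. Krt77, a suprabasal keratin, stayed under 1 CPM in all but 1 of the 8 libraries, with 0, 0.509, 5.83 and 0.202 CPM in LowAhR+AD+BJ, against 14.5 ± 2.84 CPM in LowAhR.

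The late cornified envelope genes, a cluster expressed in the outermost living layer, leaned the other way, with 9 of 22 higher and a median log2 fold change of -0.36. None reached an unadjusted p under 0.05. Their summed level spanned 434 to 17167 CPM in LowAhR+AD and 2982 to 7397 CPM in LowAhR+AD+BJ, and the median ranged from -0.76 to 1.25 as single libraries were left out. In the SPRR and S100 list, small proline-rich and calcium-binding proteins of the stressed epidermis, 17 of 21 were higher (median 0.27) and 3, all higher, did not overlap between the groups, beside 2.42% of all genes. Without LowAhR+AD replicate 1, 14 of 21 were higher (median 0.19) and 3 did not overlap, beside 2.89%. Those with an unadjusted p under 0.05, all higher, went from 3, beside 4.51% of all genes, to 1, beside 2.91%. S100a4, a calcium-binding protein of fibroblasts and dendritic cells, had 265, 541, 543 and 501 CPM in LowAhR+AD and 806, 609.9, 800.3 and 699 CPM in LowAhR+AD+BJ. All treated values lay above all untreated ones, with a log2 fold change of 0.66 (SE 0.27, edgeR adjusted p = 0.5), and 0.46 without LowAhR+AD replicate 1. S100a13 did so more narrowly, with 53.3, 59.7, 83.7 and 91.2 CPM without and 116, 94.1, 96.7 and 91.8 CPM with BJIKT. The log2 fold change of S100a13 was 0.47 (SE 0.22, edgeR adjusted p = 0.522), and 0.35 without LowAhR+AD replicate 1. Sprr4, a small proline-rich protein, had 0, 7.3, 1.4 and 4.82 CPM in LowAhR+AD and 25.7, 14.9, 13.5 and 12.8 CPM in LowAhR+AD+BJ. Its groups did not overlap, and it had one of the highest log2 fold changes by the rule for single genes, 2.31 (SE 0.997, edgeR adjusted p = 0.507).

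S100a8 and S100a9, the calprotectin pair of neutrophils and inflamed keratinocytes, were named after their values were seen, as a readout of inflammation. S100a8 had 59.4, 1276, 381 and 673 CPM without and 1069, 1391, 529.5 and 722 CPM with BJIKT. The groups overlapped, and the log2 fold change was 0.64 (SE 0.60, edgeR adjusted p = 0.765), and 0.24 without LowAhR+AD replicate 1. It was higher than in LowAhR in both DNCB groups, by 4.29 in LowAhR+AD (adjusted p = 0.00107) and by 4.92 in LowAhR+AD+BJ (adjusted p = 0.00107), and S100a9 by 4.49 in LowAhR+AD (adjusted p = 0.000773) and by 5.29 in LowAhR+AD+BJ (adjusted p = 0.000647), all from edgeR. Between the DNCB groups the 95% interval of S100a8 ran from -0.63 to 1.90 and that of S100a9 from -0.44 to 2.04 on the log2 scale.

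Genes of the barrier lipids were mostly higher, 26 of 35 with a median log2 fold change of 0.32, and 0.14 without LowAhR+AD replicate 1. Ugcg, which makes the glucosylceramide that is exported into the horny layer, had 39, 73, 40.9 and 47.9 CPM in LowAhR+AD and 77.3, 80.3, 71.6 and 102 CPM in LowAhR+AD+BJ. The estimated log2 fold change was 0.72 (SE 0.24, edgeR adjusted p = 0.498). Alox12e, an epidermal lipoxygenase, had 14.4, 17.2, 59.4 and 29 CPM without and 13.7, 81.5, 399 and 62.9 CPM with BJIKT. The difference of 2.21 on the log2 scale (SE 0.67, edgeR adjusted p = 0.498) rested mostly on treated replicate 3. Sptlc3, a subunit of the enzyme that starts sphingolipid synthesis, was 1.14 higher on the log2 scale (SE 0.40, edgeR adjusted p = 0.498). Nipal4, a gene whose loss causes ichthyosis, had a log2 fold change of -0.99 (SE 0.33, edgeR adjusted p = 0.498).

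Dsc3, a desmosomal cadherin that joins keratinocytes, had 81.4, 116, 98.3 and 146 CPM in LowAhR+AD and 182, 220.4, 156 and 169 CPM in LowAhR+AD+BJ, without overlap. On the log2 scale the fold change was 0.72 (SE 0.26, edgeR adjusted p = 0.498), and against LowAhR it differed by 0.37 in LowAhR+AD (adjusted p = 0.368) and by 1.09 in LowAhR+AD+BJ (adjusted p = 0.0172), both by edgeR. Cstb, a cathepsin inhibitor, also did not overlap, with 247, 939.7, 579 and 1041 CPM without and 1429, 1676, 1104 and 1603 CPM with BJIKT. It differed by 1.05 on the log2 scale (SE 0.34, edgeR adjusted p = 0.498), and by 0.76 without LowAhR+AD replicate 1, which was the lowest. Krt5, the keratin of the basal layer, was named after its values were seen and was present in all 8 libraries. It had 6185, 2088, 1530.0 and 2132 CPM in LowAhR+AD, of which replicate 1 was the highest by far. In LowAhR+AD+BJ it had 1412, 1758, 1559.9 and 1934 CPM. The difference on the log2 scale was -0.84 (SE 0.34, edgeR adjusted p = 0.5), and -0.21 without that library.

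Receptor genes of type 2 cytokines did not pass the test between the DNCB groups. Il4ra, the alpha chain shared by receptors of IL-4 and IL-13, had 78, 122, 59.4 and 195 CPM in LowAhR+AD and 173, 109, 89.5 and 145 CPM in LowAhR+AD+BJ. The groups overlapped over most of their range, and the log2 fold change of 0.18 (SE 0.32, edgeR adjusted p = 0.882) had an interval of -0.49 to 0.86, and was 0.039 without LowAhR+AD replicate 1. Against LowAhR, Il4ra was higher in both DNCB groups. By edgeR the log2 difference was 1.07 in LowAhR+AD (adjusted p = 0.0382) and 1.25 in LowAhR+AD+BJ (adjusted p = 0.0287). Il13ra1, its partner chain, had 24.5, 103, 75 and 84.2 CPM without and 121, 106, 93.3 and 69.3 CPM with BJIKT. The log2 fold change of 0.44 (SE 0.32, edgeR adjusted p = 0.666) was 0.15 without LowAhR+AD replicate 1, which was under all the others. Differences of Il13ra1 from LowAhR did not pass the test (edgeR adjusted p = 0.343 in LowAhR+AD and 0.09 in LowAhR+AD+BJ). Stat3, a transcription factor downstream of many cytokines, had 184, 140.0, 138 and 153 CPM in LowAhR+AD and 94.5, 111, 149 and 85.7 CPM in LowAhR+AD+BJ. Of the treated mice, 3 lay under all untreated ones, and the log2 fold change was -0.48 (SE 0.25, edgeR adjusted p = 0.555).

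Over the IL-4/IL-13 and itch list, 17 of 27 genes were higher with BJIKT (median log2 fold change 0.18), and 0.04 was the median without LowAhR+AD replicate 1, the lowest as single libraries were left out. Retnla, a secreted product of macrophages stimulated by IL-4 and of adipocytes, had 8.01, 122, 66.7 and 106 CPM in LowAhR+AD and 105, 153, 995 and 162 CPM in LowAhR+AD+BJ. Treated replicate 3 was the highest by far. Its fold change on the log2 scale was 2.23 (SE 0.73, edgeR adjusted p = 0.498), and against LowAhR, with 1363 ± 547 CPM, it differed by -4.17 in LowAhR+AD (adjusted p = 0.00318) and by -1.95 in LowAhR+AD+BJ (adjusted p = 0.114), both by edgeR. Tslp, an alarmin of keratinocytes, had 1.15, 9.11, 7.23 and 3.05 CPM without and 3.92, 21, 25.4 and 6.66 CPM with BJIKT, and a log2 fold change of 1.47 (SE 0.70, edgeR adjusted p = 0.527). The 2 highest values were treated ones and the others overlapped.

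In the IL-17, IL-20 and neutrophil list 20 of 28 were higher and 0 had an unadjusted p under 0.05, and the median of 0.34 was 0.03 without LowAhR+AD+BJ replicate 1. Il1b, a cytokine of myeloid cells, had 27.2, 26.5, 40.4 and 82.7 CPM in LowAhR+AD and 167, 124, 14.9 and 51.9 CPM in LowAhR+AD+BJ, so that treated mice held both the highest and the lowest values. Interferon-stimulated genes were higher in 21 of 28 (median 0.53, and 0.43 without LowAhR+AD replicate 1), and 4 had an unadjusted p under 0.05, all guanylate-binding or immunity-related GTPases and higher, beside 4.51% of all genes. Without that library 2 had such a p, beside 2.91%. Gbp3 had 1.07, 4.35, 10.1 and 10.3 CPM without and 20.4, 12.1, 11.5 and 15.6 CPM with BJIKT, with no overlap and a log2 fold change of 1.21 (SE 0.47, edgeR adjusted p = 0.5). Gbp5 had 3.74, 4.1, 3.96 and 5.62 CPM in LowAhR+AD and 13.1, 3.97, 11.7 and 13.8 CPM in LowAhR+AD+BJ. Treated replicate 2 lay among the untreated mice and the other 3 above them.

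Antigen presentation genes were higher in 12 of 16 with a median log2 fold change of 0.52. It was 0.51 without LowAhR+AD replicate 1 but 0.11 without LowAhR+AD+BJ replicate 3 and 0.93 without LowAhR+AD replicate 3. Against LowAhR, 4 of them fell in LowAhR+AD and 2 in LowAhR+AD+BJ by edgeR, 2 comparisons that share the LowAhR libraries, beside 6.21% and 3.12% of all genes tested. Without LowAhR+AD replicate 1, those called lower over all genes went from 923 to 916 in LowAhR+AD and from 464 to 838 in LowAhR+AD+BJ. Counts of the antigen presentation list without that library are not given here. B2m, the light chain of MHC class I, had 1651, 2361, 3619 and 3282 CPM without and 4383, 3529, 5634 and 4407 CPM with BJIKT. Only treated replicate 2 overlapped the untreated mice, and the log2 fold change was 0.72 (SE 0.27, edgeR adjusted p = 0.499). H2-DMa, which loads peptides onto MHC class II, had 16.3, 10.2, 25.1 and 16.9 CPM in LowAhR+AD and 27, 15.5, 60.6 and 24.9 CPM in LowAhR+AD+BJ. Treated replicate 3 was the highest here too, and the log2 fold change was 0.91 (SE 0.37, edgeR adjusted p = 0.5).

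Markers of Langerhans and dendritic cells had the second highest median of all lists over the 8 libraries, 0.90, with 9 of 12 higher. It was 0.67 without LowAhR+AD replicate 1, and ranged from 0.25 without LowAhR+AD+BJ replicate 3 to 1.31 as single libraries were left out. Their summed level was 139.6 to 187 CPM in LowAhR+AD and 197 to 305 CPM in LowAhR+AD+BJ, without overlap, but most of it was Epcam, an adhesion molecule that hair follicle and gland cells also express. Epcam had 139, 121, 95.4 and 139 CPM without and 158, 156, 163 and 184 CPM with BJIKT, and a log2 fold change of 0.42 (SE 0.18, edgeR adjusted p = 0.509). Cd209a, a lectin of dendritic cells, had 0, 3.45, 3.65 and 1.28 CPM in LowAhR+AD and 6.57, 3.16, 17.9 and 6.15 CPM in LowAhR+AD+BJ. Its log2 fold change was 2.01 (SE 0.85, edgeR adjusted p = 0.505), and treated replicate 3 was the highest. Macrophage markers were higher in 14 of 15 (median 0.46, and 0.17 without LowAhR+AD replicate 1) and T cell markers in 10 of 15 (median 0.44, and 0.17 to 1.37 as single libraries were left out). The summed level of the T cell markers leaned the other way. It was 218 to 324 CPM in LowAhR+AD and 167 to 246 CPM in LowAhR+AD+BJ, with overlap.

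Endothelial genes formed the list with the lowest median over all 8 libraries, although without LowAhR+AD replicate 1 that of the late cornified envelope genes was lower. Of 15 members 12 were lower with BJIKT, with a median log2 fold change of -0.81 (-0.70 without LowAhR+AD replicate 1), and 8 had an unadjusted p under 0.05, all lower, where 4.95% of all genes did. Without that library 7 had such a p, beside 2.3% of all genes, and 5 did not overlap, all lower, beside 4.18%. With all 8 libraries the groups did not overlap in 4 of them, Plvap, Cdh5, Cldn5 and Tie1, where 2.65% of all genes did so. None passed the test, and the median stayed between -0.94 and -0.65 as each of the 8 libraries was left out. With an offset for the GC content of the transcript end the median was -0.59, and -0.63 without LowAhR+AD replicate 1 as well. Plvap, which forms the diaphragms of fenestrated capillaries, had 81.7, 60.6, 81.5 and 90.8 CPM in LowAhR+AD and 41.3, 32, 53.3 and 30.8 CPM in LowAhR+AD+BJ. Every treated mouse lay below every untreated one, with a log2 fold change of -0.999 (SE 0.31, edgeR adjusted p = 0.498). Cdh5, the cadherin of endothelial junctions, had 13.4, 12.8, 22.6 and 23.7 CPM without and 9.95, 6.82, 8.87 and 10.6 CPM with BJIKT. LowAhR+AD replicate 1 was not extreme for either gene, and the log2 fold change of Cdh5 was -1.001 with it (SE 0.33, edgeR adjusted p = 0.498) and -1.12 without it.

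Tie1, an endothelial receptor kinase named after its values were seen, had 15.8, 11.4, 16.3 and 19.4 CPM in LowAhR+AD and 7.58, 4.48, 9.96 and 8.88 CPM in LowAhR+AD+BJ, and a log2 fold change of -1.02 (SE 0.41, edgeR adjusted p = 0.5). Cldn5, a tight junction protein of vessels, had 15.5, 8.62, 5.75 and 7.95 CPM without and 5.57, 4.58, 3.89 and 2.72 CPM with BJIKT. Against LowAhR it differed by -1.18 in LowAhR+AD (adjusted p = 0.0555) and by -2.35 in LowAhR+AD+BJ (adjusted p = 0.00344), both by edgeR. Kdr, the main VEGF receptor, had 15.9, 13.7, 25.3 and 11.6 CPM in LowAhR+AD and 5.11, 5.8, 11.6 and 8.88 CPM in LowAhR+AD+BJ, and its groups touched. For Flt1, a decoy receptor for VEGF, the log2 fold change of -1.51 (SE 0.57, edgeR adjusted p = 0.499) was -0.50 without LowAhR+AD replicate 1, which alone had 62.8 CPM. Pecam1, named after its values were seen as the standard pan-endothelial marker, had 58.5, 64.6, 129.6 and 101 CPM without and 72, 41.2, 67.5 and 62.2 CPM with BJIKT, and a log2 fold change of -0.54 (SE 0.33, edgeR adjusted p = 0.607).

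Collagen IV, the collagen of basement membranes including those of vessels, lay the same way. Col4a2 had 159.9, 169, 179 and 224 CPM in LowAhR+AD and 104, 66.4, 105 and 124 CPM in LowAhR+AD+BJ. The groups did not overlap, with a log2 fold change of -0.87 (SE 0.26, edgeR adjusted p = 0.498) and -0.94 without LowAhR+AD replicate 1. Its head-to-head neighbour Col4a1 had 169, 278, 262 and 352 CPM without and 251, 146, 162 and 205 CPM with BJIKT, and overlapped. Col6a1 and Col6a2, chains of a microfibrillar collagen, had log2 fold changes of -1.06 (SE 0.37, edgeR adjusted p = 0.498) and -1.11 (SE 0.38, edgeR adjusted p = 0.498), and LowAhR+AD replicate 3 was the highest for both. The list of 34 collagen and matrix genes as a whole had a median of -0.09, and -0.25 without LowAhR+AD replicate 1, with 21 lower.

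Skeletal muscle genes had the highest median over all 8 libraries. The panniculus carnosus, a thin muscle under mouse skin, is part of a full-thickness sample, so these genes measure how much of it a piece held as well as its expression. Of 30 members 28 were higher with BJIKT, with a median log2 fold change of 1.07 (1.15 without LowAhR+AD replicate 1, but 0.53 if treated replicate 3 is left out), and 10 had an unadjusted p under 0.05, where 4.51% of all genes did. Without LowAhR+AD replicate 1 there were 16, beside 2.91%. Only 1 had no overlap over all 8 libraries, beside 2.42% of all genes. Without LowAhR+AD replicate 1, 6 had no overlap, all higher, beside 2.89%. The summed level was 885 to 7196 CPM in LowAhR+AD, 5858 to 18534 CPM in LowAhR+AD+BJ and 19179 to 39779 CPM in LowAhR. Against LowAhR, 27 of 30 fell in LowAhR+AD (median -2.59) and 5 in LowAhR+AD+BJ (median -1.46) by edgeR, beside 6.21% and 3.12% of all genes tested. These comparisons share the LowAhR libraries. Over all genes, those called lower went from 923 to 916 in LowAhR+AD and from 464 to 838 in LowAhR+AD+BJ without LowAhR+AD replicate 1. The counts of this list without that library are not given here.

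Tnnc2, the calcium sensor of fast muscle, had 447, 397, 76.1 and 665 CPM in LowAhR+AD and 1037, 669.9, 1857 and 677 CPM in LowAhR+AD+BJ. LowAhR+AD replicate 3 was the lowest and treated replicate 3 the highest, and the groups were separated by a narrow gap. On the log2 scale it differed by 1.42 (SE 0.48, edgeR adjusted p = 0.498), and the groups overlapped once counts were normalized without LowAhR+AD replicate 1. Mylpf, a fast myosin light chain, had 229.6, 186, 39.3 and 288 CPM without and 507, 276, 761 and 328 CPM with BJIKT, and a log2 fold change of 1.33 (SE 0.46, edgeR adjusted p = 0.498). Des (desmin), the intermediate filament of muscle, was likewise highest in treated replicate 3, with 52.3, 48.6, 14.1 and 81.8 CPM in LowAhR+AD and 112, 60.4, 172 and 83.2 CPM in LowAhR+AD+BJ. Pvalb, a calcium buffer of fast fibres, overlapped more, with 96.8, 185, 39.6 and 319 CPM without and 514, 302, 1278 and 113 CPM with BJIKT.

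Muscle genes also led the genes chosen by size. Among genes with an unadjusted p under 0.05, no overlap and 10 CPM or more on average in either group, the highest log2 fold change was that of Mylk4, a myosin light chain kinase of striated muscle, which had 0.687, 1.15, 0.078 and 0.321 CPM in LowAhR+AD and 6.84, 3.56, 30.6 and 6.05 CPM in LowAhR+AD+BJ. All treated mice were above all untreated ones, and the log2 fold change was 4.38 (SE 0.75, edgeR adjusted p = 0.193). Itgb1bp2 (melusin), a chaperone of muscle, had 4.35, 2.71, 1.17 and 4.66 CPM without and 16.9, 12.2, 23.7 and 8.57 CPM with BJIKT. It differed by 2.25 (SE 0.43, edgeR adjusted p = 0.193). Trdn (triadin), of the muscle calcium release complex, had 23.9, 69.3, 12.9 and 67.9 CPM in LowAhR+AD and 181, 125, 319.6 and 100.5 CPM in LowAhR+AD+BJ, and a log2 fold change of 2.06 (SE 0.46, edgeR adjusted p = 0.369). Each of the 3 was also set against LowAhR on the log2 scale, from which Mylk4 differed by -6.61 in LowAhR+AD (adjusted p = 0.000148) and by -2.23 in LowAhR+AD+BJ (adjusted p = 0.0414), Trdn by -3.65 in LowAhR+AD (adjusted p = 0.000287) and by -1.59 in LowAhR+AD+BJ (adjusted p = 0.04) and Itgb1bp2 by -3.62 in LowAhR+AD (adjusted p = 0.000165) and by -1.37 in LowAhR+AD+BJ (adjusted p = 0.0506), all by edgeR. The last of these did not pass the test.

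**Figure D3:**
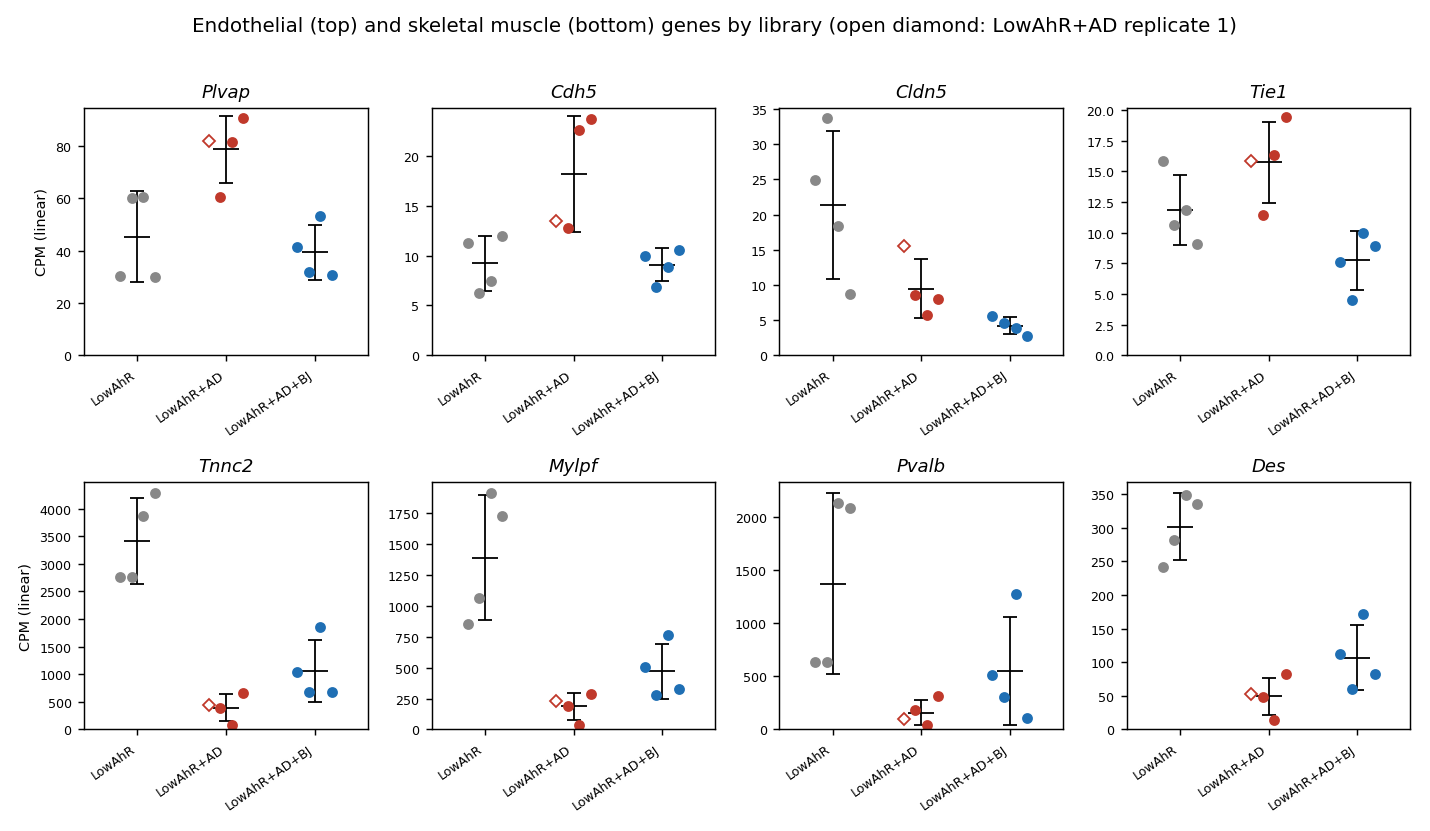
Levels of 4 endothelial genes (top row) and 4 skeletal muscle genes (bottom row) in CPM on linear axes, with a point per library, the mean as a bar and the SD as the error bar (n = 4), and LowAhR+AD replicate 1 as an open diamond. The LowAhR+AD+BJ values of all 4 endothelial genes lie below those of LowAhR+AD, whereas the means of the muscle genes lie below LowAhR in both DNCB groups, which overlap except for Tnnc2.

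Among the 10 highest was also Nudt7, a peroxisomal coenzyme A hydrolase, with 6.03, 5.58, 8.24 and 5.86 CPM in LowAhR+AD and 21.5, 26, 11.7 and 19.6 CPM in LowAhR+AD+BJ. The log2 fold change of 1.61 (SE 0.35, edgeR adjusted p = 0.304) stands beside a difference from LowAhR of -1.91 in LowAhR+AD (adjusted p = 0.00245) and of -0.30 in LowAhR+AD+BJ (adjusted p = 0.67), both by edgeR. Muc15, a membrane mucin, had 5.5, 16, 12.1 and 4.66 CPM without and 30.8, 28.3, 35.2 and 38.7 CPM with BJIKT, and a log2 fold change of 1.80 (SE 0.36, edgeR adjusted p = 0.261). Neither gene depended on LowAhR+AD replicate 1, without which the values were 1.58 and 1.60. Ssbp1, a mitochondrial DNA-binding protein, Taf9b, a transcription factor subunit, Cd209e, a lectin, and the transcript AA467197 had log2 fold changes of 1.73, 1.83, 1.92 and 2.17, with adjusted p of 0.498, 0.503, 0.499 and 0.498 from edgeR, and LowAhR+AD replicate 1 was the lowest for all 4.

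Of the 10 lowest, LowAhR+AD replicate 1 was the highest of its group in 9. It was the lowest of its group in 5 of the 10 highest. Without it, 7 of the 10 lowest kept an unadjusted p under 0.05, against 10 of the 10 highest. Both sets were chosen by p and overlap in these same libraries, so that these counts only describe the chosen genes. Fmnl3, a formin, and Flywch1, a zinc finger protein, went from log2 fold changes of -2.38 and -2.35 to -1.44 and -0.83. The exception was Rn4.5s, a short RNA polymerase III transcript of rodents with many genomic copies, whose count is therefore uncertain, which had 486, 579.5, 424 and 1051 CPM in LowAhR+AD and 249, 219, 165 and 209.8 CPM in LowAhR+AD+BJ. The estimated log2 fold change was -1.59 (SE 0.32, edgeR adjusted p = 0.261). Vgll4, a brake on the TEAD transcription factors of the Hippo pathway, had 38.2, 12.8, 19.3 and 16.3 CPM without and 6.12, 6.52, 9.18 and 4.34 CPM with BJIKT, and a log2 fold change of -1.72 (SE 0.41, edgeR adjusted p = 0.478). Porcn, which attaches the lipid that Wnt proteins need for secretion, had 81.4, 25.2, 22 and 39.4 CPM in LowAhR+AD and 17.5, 16, 10.3 and 14 CPM in LowAhR+AD+BJ. Bcl9, a coactivator of beta-catenin, had a log2 fold change of -1.53 (SE 0.45, edgeR adjusted p = 0.498). The remaining 4 were Nrxn2, Urgcp, Tubgcp6 and Alg3, at -1.70, -1.62, -1.54 and -1.502, or -1.52, -1.18, -0.88 and -0.75 without LowAhR+AD replicate 1.

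Selenbp1 and Apol7a, named after their values were seen, shared the lowest adjusted p with Mylk4 and Itgb1bp2. Selenbp1, a methanethiol oxidase with a near-identical paralog that makes its count uncertain, had 78, 119, 94.5 and 79.1 CPM in LowAhR+AD and 33.7, 49.9, 52.1 and 39.4 CPM in LowAhR+AD+BJ, with no overlap, and its log2 fold change was -1.08 (SE 0.20, edgeR adjusted p = 0.193). Apol7a, of the apolipoprotein L family, had 0, 0, 0.389 and 0 CPM without and 1.28, 2.04, 2.8 and 2.82 CPM with BJIKT, so low that its log2 fold change depends on the prior count. Against 11.6 ± 2.3 CPM (SD, n = 4) in LowAhR it fell in both groups (adjusted p = 0.000184 and 0.0363 from edgeR).

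In 3 clock genes the groups did not overlap, with Nr1d2 and Bhlhe41 higher, beside 2.42% of all genes, and Cry1 lower, beside 2.65%. In the clock loop ARNTL and its partner bind E-boxes and drive repressors, among them Nr1d2 and the Cry genes, and output genes such as Dbp. Over 19 genes tested, 11 were higher with BJIKT with a median of 0.24, which was 0.07 without LowAhR+AD+BJ replicate 3, and 0 passed the test. Nr1d2 (REV-ERB beta) had 56.1, 66.5, 64.1 and 56.8 CPM in LowAhR+AD and 69.8, 122, 142 and 115 CPM in LowAhR+AD+BJ. All treated mice were above all untreated ones, by a log2 fold change of 0.88 (SE 0.24, edgeR adjusted p = 0.498). Bhlhe41 (DEC2), a repressor that binds E-boxes, had 13.2, 14.3, 11.2 and 9.72 CPM without and 22.7, 22.2, 24 and 22.6 CPM with BJIKT. Both groups were tight, and the log2 fold change was 0.92 (SE 0.25, edgeR adjusted p = 0.498). Against LowAhR, with 27.9 ± 7.25 CPM, Bhlhe41 differed by -1.21 in LowAhR+AD (adjusted p = 0.005) and by -0.29 in LowAhR+AD+BJ (adjusted p = 0.55), both by edgeR.

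Cry1, a light-independent repressor of the loop, was opposite, with 13.7, 8.86, 8.63 and 10.9 CPM in LowAhR+AD and 4.38, 3.26, 6.46 and 6.66 CPM in LowAhR+AD+BJ. Its groups did not overlap and the log2 fold change was -1.02 (SE 0.52, edgeR adjusted p = 0.547). Dbp had 7.4, 10.01, 11 and 17.3 CPM without and 14.3, 20.4, 35.2 and 17.4 CPM with BJIKT, and a log2 fold change of 0.93 (SE 0.41, edgeR adjusted p = 0.507). Arntl had 0.153, 6.15, 4.28 and 2.09 CPM in LowAhR+AD and 5.02, 3.97, 14.7 and 7.36 CPM in LowAhR+AD+BJ, and its lowest value was in LowAhR+AD replicate 1. The hour at which each mouse was killed is not given in the sources used here. Of the promoters of Nr1d2, Bhlhe41, Cry1 and Dbp, the 2 with a CACGTG E-box in the 250 bases before the start are shown, with the E-box in capitals, as those of a gene with a higher and a gene with a lower estimate.
Bhlhe41, chr6:145865421-145865670, minus strand: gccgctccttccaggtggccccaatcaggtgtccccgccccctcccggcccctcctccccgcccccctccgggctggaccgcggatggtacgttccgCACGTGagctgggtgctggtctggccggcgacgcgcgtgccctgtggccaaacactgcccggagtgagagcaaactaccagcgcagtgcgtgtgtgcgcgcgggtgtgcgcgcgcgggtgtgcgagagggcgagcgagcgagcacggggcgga
Cry1, chr10:85185055-85185304, minus strand: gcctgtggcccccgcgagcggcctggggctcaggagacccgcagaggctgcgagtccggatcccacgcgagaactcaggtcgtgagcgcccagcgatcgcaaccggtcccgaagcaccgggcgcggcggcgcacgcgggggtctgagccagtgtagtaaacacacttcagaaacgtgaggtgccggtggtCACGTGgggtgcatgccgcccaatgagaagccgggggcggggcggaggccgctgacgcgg

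Nr1d2 and Dbp held no CACGTG in this window. Of all windows of this length 6.02% held one.

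Genes of the mitochondrial respiratory chain were higher in 31 of 41, with a median log2 fold change of 0.28 (0.20 without LowAhR+AD replicate 1). Of these, 10 had an unadjusted p under 0.05, beside 4.51% of all genes, and 6, all higher, did not overlap, beside 2.42%. Without that library 6 had such a p, beside 2.91%. Ndufb3, a subunit of complex I, had 99.97, 325, 317 and 347 CPM in LowAhR+AD and 592, 566, 391 and 504 CPM in LowAhR+AD+BJ. The untreated value of replicate 1 was the lowest, and the other 3 lay just under the treated range. On the log2 scale it differed by 0.91 (SE 0.30, edgeR adjusted p = 0.498), and by 0.63 without that library. Ndufa1, of the same complex, had 32.1, 146, 121 and 142 CPM without and 245, 235, 166 and 184 CPM with BJIKT. Uqcrfs1, the iron-sulfur protein of complex III, had 53.9, 175, 142 and 174 CPM in LowAhR+AD and 240.0, 242, 193 and 228 CPM in LowAhR+AD+BJ. Muscle is rich in these genes and its markers were mostly higher in the same group, but single libraries were not ordered alike. LowAhR+AD replicate 1 had the highest summed muscle level of its group, 7196 CPM, and the lowest Ndufb3, Ndufa1 and Uqcrfs1. Treated replicate 3 was the highest of its group for Tnnc2, Mylpf and Des and the lowest for Ndufb3, Ndufa1 and Uqcrfs1. The part of muscle in this result was not tested.

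**Figure D4:**
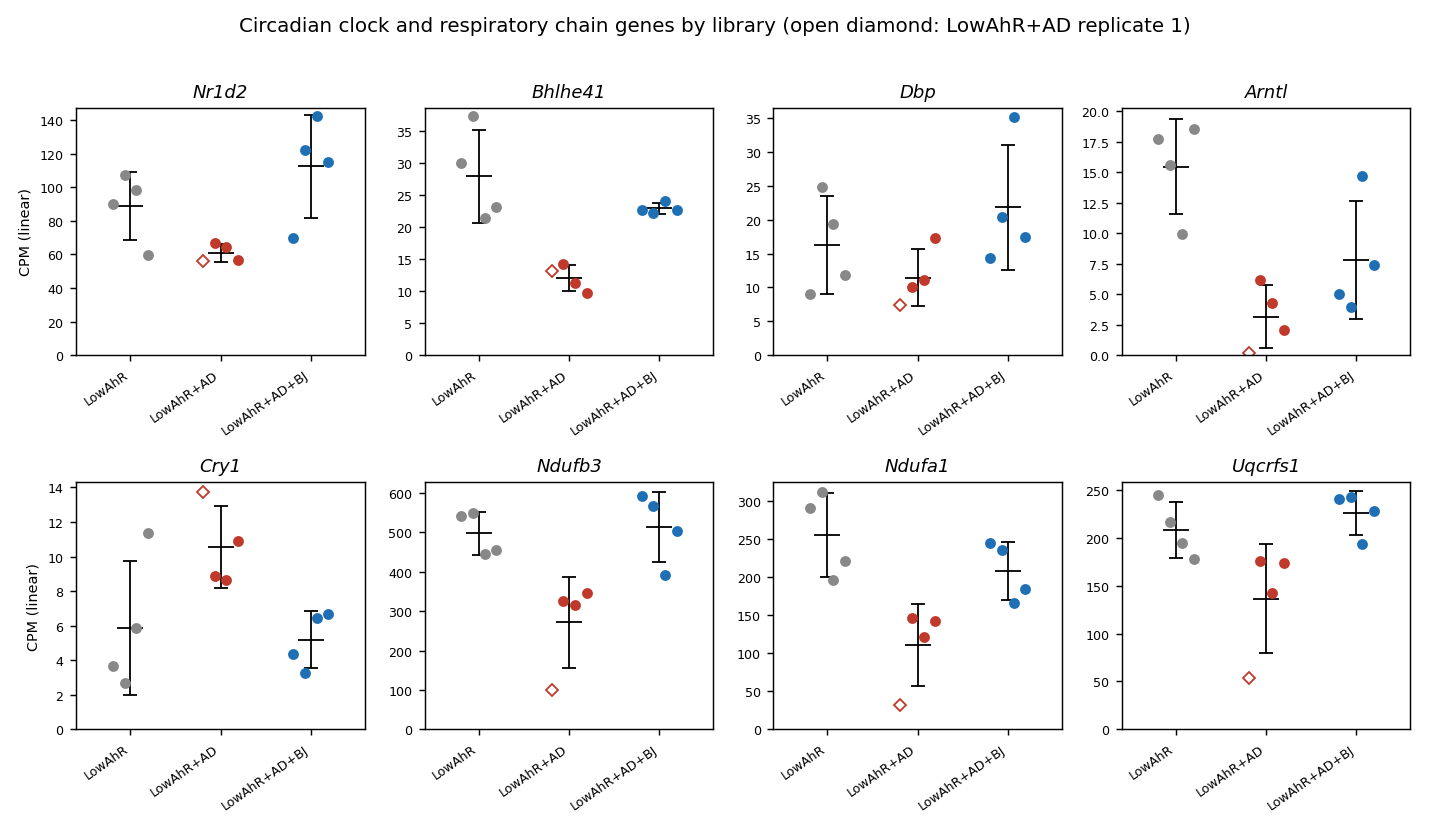
Levels of 5 circadian clock genes and 3 respiratory chain genes in CPM on linear axes, with a point per library, the mean as a bar and the SD as the error bar (n = 4), and LowAhR+AD replicate 1 as an open diamond. Nr1d2, Bhlhe41 and the 3 respiratory chain genes lie higher in every treated library than in any untreated one, and Cry1 lower.

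Hair follicle genes mostly had lower estimates, 26 of 37 with a median log2 fold change of -0.40 (-0.60 without LowAhR+AD replicate 1). In 3 of them, Foxn1, Krt35 and Lef1, the last 2 named after their values were seen, the groups did not overlap, where 2.65% of all genes were lower without overlap. The median was -0.10 without LowAhR+AD replicate 2. Krt35, a keratin of the hair cortex, had 432, 404, 382 and 278 CPM in LowAhR+AD and 68.4, 172, 164 and 170.1 CPM in LowAhR+AD+BJ. Foxn1, the transcription factor of hair differentiation, had 49.3, 39.1, 26.3 and 39.4 CPM without and 10.04, 21.8, 22.6 and 17.4 CPM with BJIKT. Their log2 fold changes were -1.38 (SE 0.93, edgeR adjusted p = 0.649) and -1.10 (SE 0.65, edgeR adjusted p = 0.6). Both were more spread out in LowAhR, where Krt35 had 38.3, 0.256, 14.8 and 157 CPM. Lgr5, a follicle stem cell receptor, had 174, 35.4, 38.5 and 31.6 CPM in LowAhR+AD, and its log2 fold change of -1.10 was -0.12 without replicate 1. Without that library 10 of the list did not overlap and were lower, beside 4.18% of all genes. With all libraries 3 of the list had an unadjusted p under 0.05 and were lower, beside 4.95% of all genes. Without LowAhR+AD replicate 1 there were 2, beside 2.3%. The summed level overlapped, at 11116 to 54144 CPM in LowAhR+AD and 14178 to 42236 CPM in LowAhR+AD+BJ.

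Sebaceous gland genes were higher in 15 of 17, with a median of 0.59 and 0.32 without LowAhR+AD replicate 1. Scd3, the fatty acid desaturase of sebocytes, had 7.33, 13.3, 28.4 and 9.15 CPM without and 18, 25.9, 73 and 64 CPM with BJIKT. On the log2 scale the fold change was 1.64 (SE 0.43, edgeR adjusted p = 0.498), and against LowAhR, with 329 ± 58.5 CPM, it fell by 4.501 on the log2 scale in LowAhR+AD (adjusted p = 0.000115) and by 2.86 in LowAhR+AD+BJ (adjusted p = 0.00143) by edgeR. Mgst1, a microsomal glutathione transferase, had 40.1, 208, 184 and 185 CPM in LowAhR+AD and 494, 337, 288 and 229.6 CPM in LowAhR+AD+BJ. Its groups did not overlap, and the log2 fold change was 1.12 with LowAhR+AD replicate 1 (SE 0.36, edgeR adjusted p = 0.498) and 0.80 without it.

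Cytochrome P450 genes outside the CYP1 family are enzymes of drug, steroid and fatty acid oxidation, and the list held only part of them. It had a median of 0.15, and 5 of 26 had an unadjusted p under 0.05, all higher, beside 4.51% of all genes. Without LowAhR+AD replicate 1 there were 4, beside 2.91%. Cyp2f2 had 4.503, 35.1, 35.4 and 28.1 CPM without and 43.4, 38.5, 122 and 69.3 CPM with BJIKT, with no overlap and a log2 fold change of 1.40 (SE 0.55, edgeR adjusted p = 0.5). Cyp2j6 had 10.8, 28.3, 35.3 and 31.8 CPM in LowAhR+AD and a narrow range of 46.2, 46.7, 47.6 and 44.1 CPM in LowAhR+AD+BJ. It differed by 0.80 (SE 0.35, edgeR adjusted p = 0.507). Cyp27a1, a sterol hydroxylase, differed by 0.70, and by 0.89 without LowAhR+AD replicate 1. Against LowAhR Cyp2f2 differed by -3.19 in LowAhR+AD (adjusted p = 0.00248) and by -1.79 in LowAhR+AD+BJ (adjusted p = 0.059) and Cyp2j6 by -1.66 in LowAhR+AD (adjusted p = 0.00593) and by -0.87 in LowAhR+AD+BJ (adjusted p = 0.147), all by edgeR.

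Cell cycle genes were near balance, with 14 of 31 higher and a median of -0.07, and 16 higher without LowAhR+AD replicate 1. Against LowAhR, 15 of 31 rose in LowAhR+AD and 13 in LowAhR+AD+BJ by edgeR, beside 6.42% and 3.64% of all genes. Kif23, a kinesin of cytokinesis, had 38.2, 16.7, 18.3 and 22.2 CPM without and 4.93, 14.9, 12.3 and 15.2 CPM with BJIKT, without overlap. Ccnd1 (cyclin D1), which carries cells into the cycle, had 201, 99.9, 134 and 80.0 CPM in LowAhR+AD and 52.6, 73.3, 68.6 and 102 CPM in LowAhR+AD+BJ. Their log2 fold changes were -1.01 (SE 0.39, edgeR adjusted p = 0.499) and -0.79 (SE 0.29, edgeR adjusted p = 0.498), and -0.70 and -0.50 without LowAhR+AD replicate 1. Of the stress and activated keratinocyte list 14 of 25 rose in LowAhR+AD and 14 in LowAhR+AD+BJ, beside the same shares of all genes. Its median between the DNCB groups was 0.17, and 0.10 without LowAhR+AD replicate 1.

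**Figure D5:**
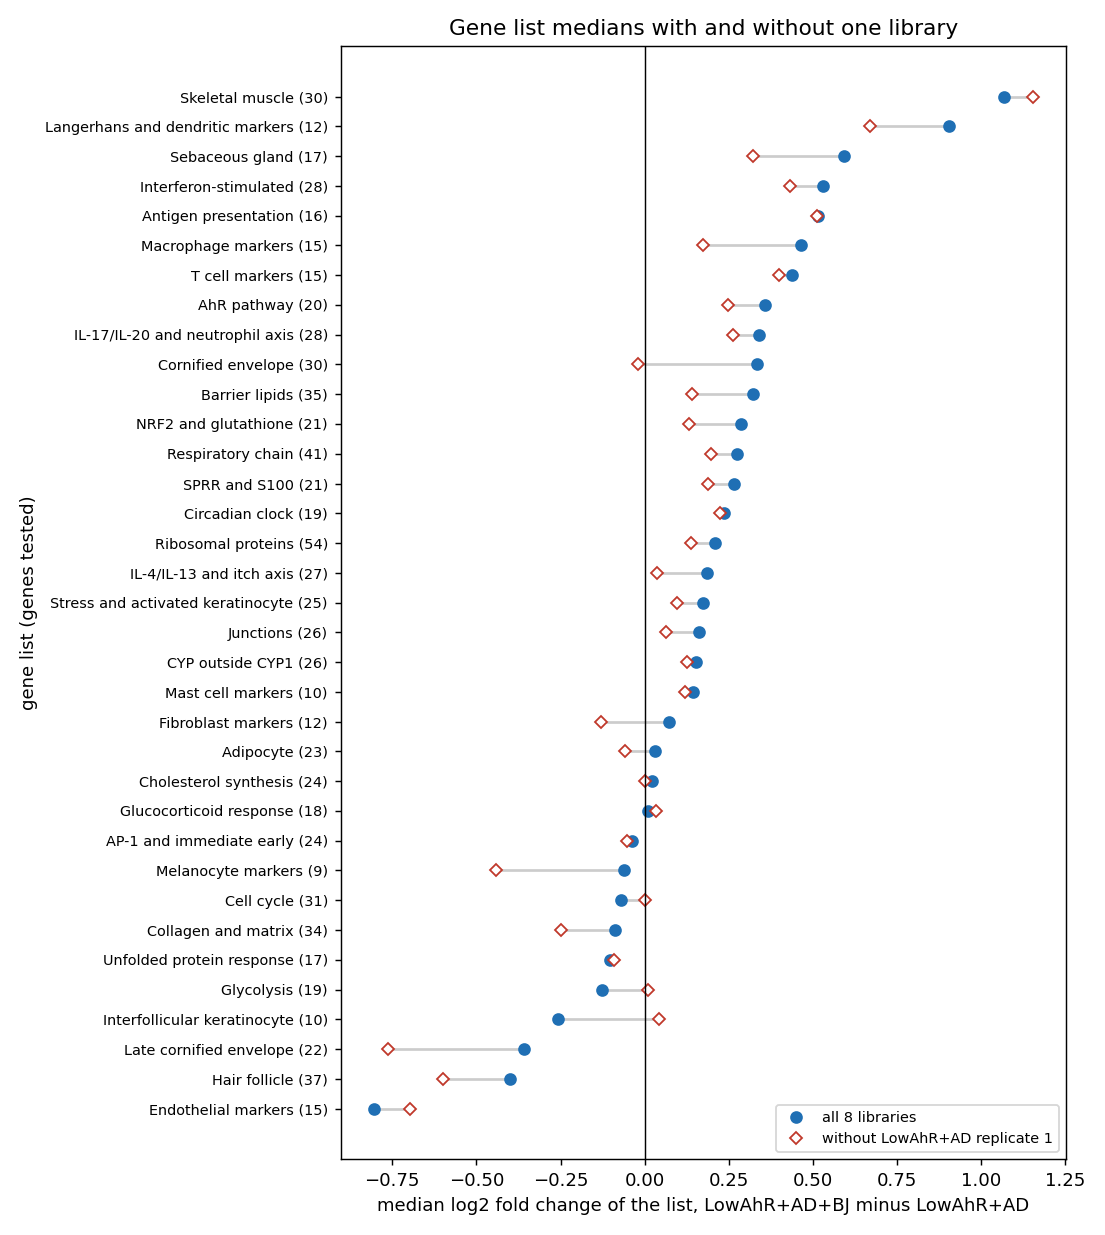
Median log2 fold change of LowAhR+AD+BJ minus LowAhR+AD for each of the 35 gene lists, with the number of genes tested in brackets, over all 8 libraries (filled circles) and without LowAhR+AD replicate 1 (open diamonds). Skeletal muscle is highest at 1.07 and endothelial markers lowest at -0.81 with all libraries, and the cornified envelope list moves from 0.33 to -0.02 when that library is left out.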

How the data were processed

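Dorsal skin of 16 mice gave 1 QuantSeq 3' library of total RNA each, sequenced from a single end on a NextSeq 500. For each library the authors deposited whole-number read counts by gene symbol, not normalized. Per the labels, their processing used Bowtie2, bedtools and mm10. How reads that match several genes or the opposite strand were counted is not given in the sources used here, so counts of multigene families and overlapping genes are uncertain. Groups and replicate numbers came from the labels.

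Counts of all 16 libraries entered 1 edgeR 4.0.16 quasi-likelihood model (R 4.3.3, a coefficient per group, TMM factors). edgeR's filter (minimum count 10, minimum total 15) left 14854 of 23282 rows, over all of which Benjamini-Hochberg adjustment was made. Context comparisons with LowAhR used the same model. CPM used TMM-scaled totals, log2 CPM a prior count of 2, and single genes also a two-sided exact permutation test of log2 CPM, whose smallest p with 4 against 4 is 0.0286. At these totals a count of 0 allows up to 3 counts, or 0.229 to 0.305 CPM, for counting error only. The chi-square per degree of freedom between replicates was 27.2 to 285, so each library counted as 1 replicate.

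Named genes were the 10 the study names, up to 6 per list by lowest unadjusted p, and the 10 highest and 10 lowest log2 fold changes among genes with an unadjusted p under 0.05, 10 CPM in one group and no overlap. Others are said to be named after their values were seen. Members, lists and rules were chosen with earlier results of these data known. Lists were described by counts and medians, without a test. The alternatives tried were DESeq2 1.42.0, RLE and upper-quartile factors, limma 3.58.1 voom with and without quality weights, no filter, at least 10 counts in every library, only the 8 libraries, the replicate number as a block, a 2-fold minimum, library sizes without muscle, hair, fat and Rn45s, and each library left out. A GC offset and fits of 7 libraries were added after seeing the data. The scripts were tested on simulated data. Sequences and coordinates are RefSeq's on GRCm38.p6. Flg was not analysed here, and 1 other gene is not reported.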

Additional observations from a re-analysis of the deposited data

Results flagged for a closer look

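Within LowAhR+AD and LowAhR+AD+BJ, the highest or lowest of the 4 libraries was set against the rest of its group by the ratio of its gap to the group's range on the log2 CPM scale and Dixon's 95% critical value. Chance alone marks about 1 in 20 groups. Among the 108 genes examined, 22 of 216 groups had such a library, 16 in LowAhR+AD and 6 in LowAhR+AD+BJ, and in 14 of the former it was LowAhR+AD replicate 1. That library was far below the other 3 for Spink5 at 340.4 CPM, S100a4 at 265 CPM, Cyp2f2 at 4.503 CPM, Mgst1 at 40.1 CPM, Ces1d at 0.382 CPM, Sptlc3 at 6.03 CPM, Ndufb3 at 99.97 CPM, Ndufa1 at 32.1 CPM and AA467197 at 0.153 CPM. It was far above them for Hsp90ab1 at 3119 CPM, Flt1 at 62.8 CPM, Lgr5 at 174 CPM, Cyp27a1 at 17.9 CPM and Flywch1 at 58.4 CPM. The lone library was LowAhR+AD replicate 4 for Ccl17 at 0.402 CPM, where the others had no count, and LowAhR+AD replicate 3 for Apol7a at 0.389 CPM, likewise against 0. LowAhR+AD+BJ replicate 1 was far above the rest of its group for Il13ra2 at 17.7 CPM. LowAhR+AD+BJ replicate 1 was far below the rest of its group for Krt35 at 68.4 CPM. LowAhR+AD+BJ replicate 2 was far below the rest of its group for Gbp5 at 3.97 CPM. LowAhR+AD+BJ replicate 3 was far above the rest of its group for Flt1 at 15.5 CPM and Cd209e at 41.9 CPM. LowAhR+AD+BJ replicate 4 was far above the rest of its group for Nipal4 at 13.9 CPM.

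The median correlation of log2 CPM with the other 7 libraries was 0.642 for LowAhR+AD replicate 1, and it stood apart within its group by the same ratio. Levels in that library also moved with the GC content of the transcript end. For each 10 percentage points of GC over the last 300 bases its log2 CPM deviated from the mean library by 0.34, against -0.12 to 0.16 in the other 15 libraries. Between the DNCB groups the median log2 fold change went from 0.16 in the fifth of genes with the lowest GC to -0.22 in the fifth with the highest, and from 0.10 to -0.14 without that library. With a GC offset in the model the median of the endothelial list was -0.59, against -0.81 without the offset. That of the skeletal muscle list was 1.12, against 1.07. Whether GC content caused any difference was not tested.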

How the results depend on the processing

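The number of genes at an adjusted p under 0.05 between LowAhR+AD+BJ and LowAhR+AD was 0 with edgeR, under RLE and upper-quartile factors, limma voom with and without quality weights, both other filters, only the 8 libraries, library sizes without muscle, hair, fat and Rn45s, a 2-fold minimum and the GC offset. DESeq2 alone among fits of all libraries called genes, 17, of which 14 were higher with BJIKT, and 5 had at most 3 counts in any LowAhR+AD library. As single libraries were left out the number was 0 to 1, with Atcayos called without LowAhR+AD replicate 2 and Apol7a without LowAhR+AD replicate 3. At an unadjusted p under 0.05 the number was 784 to 1810 with 1 library left out, lowest without LowAhR+AD replicate 1, and it was 915 with only the 8 libraries in the model. Without LowAhR+AD replicate 1 as well, it was 825 with 7 libraries and 709 with the GC offset. Genes called in LowAhR+AD+BJ against LowAhR went from 1005 to 1716 and in LowAhR+AD against LowAhR from 1876 to 1718 when LowAhR+AD replicate 1 was left out of the model. The causes were not tested.

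The replicate numbers were not taken as pairs. Deviations of same-numbered libraries correlated at -0.22 to 0.36 over 24 pairs of libraries, 8 of them above 0.1. With the replicate block 0 genes had an adjusted p under 0.05 and 1201 an unadjusted p under 0.05. Among the 108 genes examined, the direction of Lor turned, to 0.070 with the replicate block and 0.060 with limma voom. With 1 library left out, the log2 fold change was -0.77 to 1.08 for Lor, -0.44 to 2.39 for Flg2 and -0.029 to 0.58 for Il4ra, and the other genes kept their direction in every alternative.

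The median standard error of a log2 fold change was 0.42 with 4 mice a group, and for the median gene the 95% interval reached 0.87 to either side.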
